A study of Mus musculus with 6 samples.

Results

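The genes described here encode enzymes that conjugate, reduce or oxidise foreign compounds and peroxides, together with 3 of their regulators. They were chosen by gene symbol alone, as the genes whose symbol begins with Gsta, Gstm, Gstp, Gstt, Gsto, Gstk, Gstz, Mgst, Gpx, Akr1, Ugt1, Ugt2, Sult or a letter series of Cyp1 to Cyp4, or is Nqo1, Gclc, Gclm, Gsr, Gss, Hmox1, Txnrd1, Ephx1, Ephx2, Nfe2l2, Keap1 or Ahr. The rule found 103 of the 11281 genes measured. Expression was measured on exon arrays in back-skin epidermal keratinocytes, not divided into subsets, of 9.5 week old female mice of the C57BL6/CBA background, and the extraction protocol names a cell sort without saying which cells it kept. The groups were 3 samples from wild type mice and 3 from K14ΔNLef1 mice, which carry an N-terminally truncated Lef1, lacking the part that binds beta-catenin, under the promoter of keratin 14. The sites where that promoter is active include the basal layer and the outer root sheath of hair follicles. Cells in the samples in which it is not active are not direct targets of the transgene. The sources used here do not say how many transgenic lines were used. The samples are labelled biological replicates, and the p-values measure the spread between these samples. A gene value is the mean log2 intensity of the gene's probe sets, and a difference is K14ΔNLef1 minus wild type on that log2 scale.

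Glutathione is the main small thiol of cells. Gclc and Gclm form the ligase that makes its precursor, Gss completes it, glutathione peroxidases (Gpx) spend it on peroxides, transferases (Gst, Mgst) join it to reactive compounds, and Gsr reduces the oxidised form again. Cytochromes P450 (Cyp) oxidise lipids and foreign compounds, epoxide hydrolases (Ephx) open the epoxides that some P450 enzymes form, and glucuronosyltransferases (Ugt) and sulfotransferases (Sult) make products more soluble. Keap1 holds back Nfe2l2 (NRF2), the activator of many of these genes under oxidative or electrophilic stress, and Ahr is the receptor that induces Cyp1 genes on binding aromatic ligands. In epidermis these enzymes face oxygen, light and chemicals at the body surface.

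The transgene was visible on every K14ΔNLef1 array. Lef1 had gene values of 5.81, 7.02 and 6.26 in wild type and 11.11, 11.13 and 11.24 in K14ΔNLef1, a rise of 4.80 (SE 0.29, limma adjusted p of 4.02e-04). K14ΔNLef1 replicate 1 stood apart, with a median intensity of 154.2 against 190.0 to 203.2 on the other 5 arrays, and 42.3% of all genes had their lowest value there. No keratinocyte marker of 10 lay in the lowest 25% of genes by mean value, Krt14 at 12.81 to 13.06, and none passed the test. With array medians made equal the median difference of all genes went from -0.054 to 0.055, so small differences depend on the scaling.

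Most members differed little between the genotypes, and 1 of the 103 passed the test. It was Sult5a1, a member of the cytosolic sulfotransferase family, which fell by 1.604. That is 0.971% of the members, beside 1.16% of all genes (limma adjusted p at or under 0.05), and in the lower direction 1 member beside 0.833% of all genes. No member passed in the higher direction, where 0.328% of all genes did. The difference was at most 0.25 in size for 62 members, between 0.25 and 0.5 for 20 and above 0.5 for 21. Of the 103 members 48 were in the lowest 25% of genes by mean value, where a small difference does not show stable expression. Without the lowest 25% of genes 3 of 55 members passed (5.45%), beside 1.38% of all genes. The median difference of the members was 0.00, with 52 higher and 51 lower, against -0.054 over all genes. For 18 members (17.5%) all 3 K14ΔNLef1 values lay on one side of the 3 wild type values, 7 above and 11 below. Over all genes 18.7% did so, 6.91% above and 11.8% below. At an unadjusted p under 0.05 there were 17 members (16.5%), 5 higher and 12 lower, beside 11.8% of all genes. Of 567 member probe sets, 115 (20.3%) did not overlap, beside 14.6% of all probe sets, and none passed a test of single probe sets, beside 0.19% of all.

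**Figure D1:**
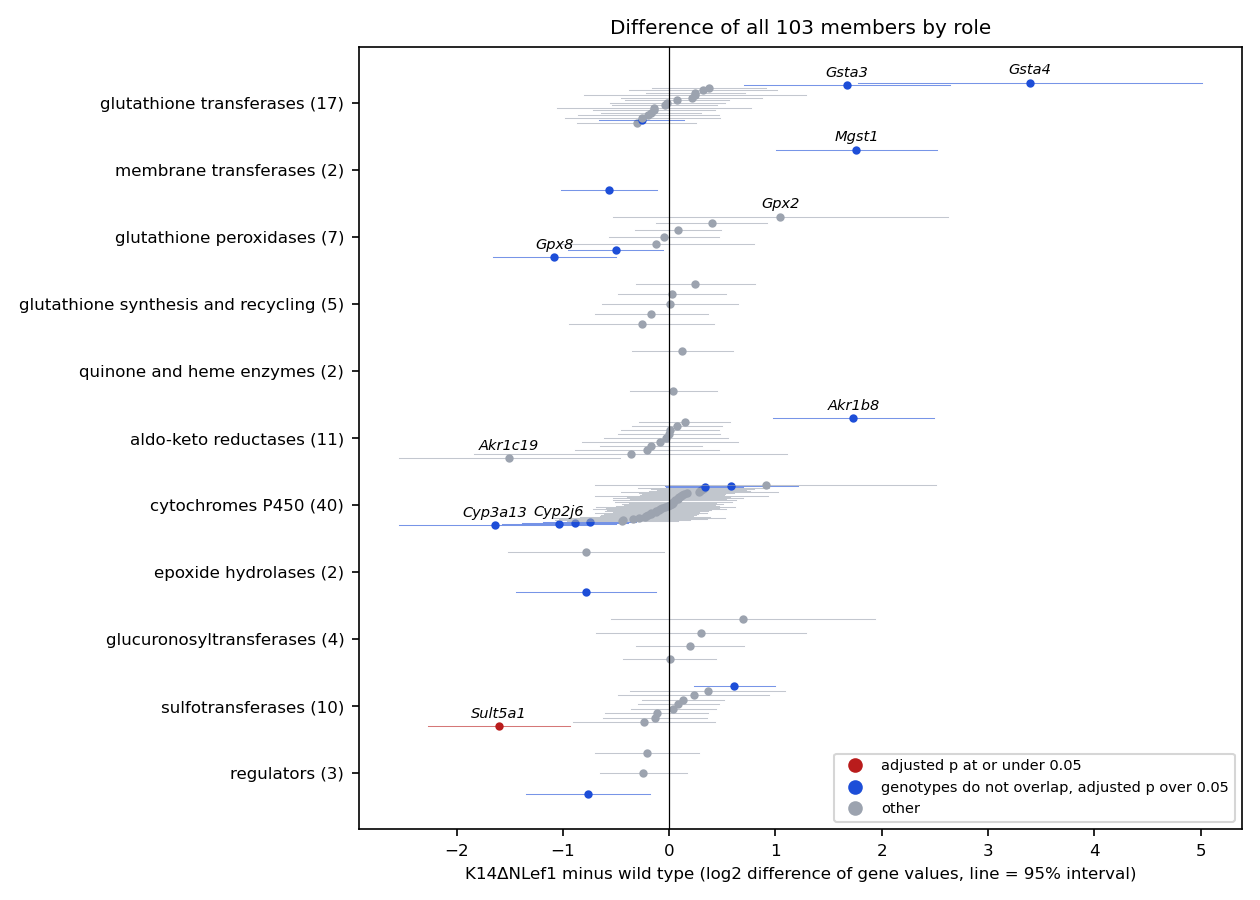
Difference between genotypes (K14ΔNLef1 minus wild type, log2, horizontal axis) of all 103 members with its 95% interval, grouped by role with the number of members. Red marks adjusted p at or under 0.05 (Sult5a1), blue the other 17 members whose genotypes did not overlap and grey the rest; most points lie within 0.5 of 0.

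A difference of over 1, or 2-fold, was measured for 10 members (9.71%), beside 3.33% of all genes. The 5 higher ones were Gsta4, Mgst1, Akr1b8, Gsta3 and Gpx2, and the 5 lower ones Cyp3a13, Sult5a1, Akr1c19, Gpx8 and Cyp2j6. Of the 10, only Gpx2 and Akr1c19 had genotypes that overlapped. The plot of these 10 shows how the values fell on each array.

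**Figure D2:**
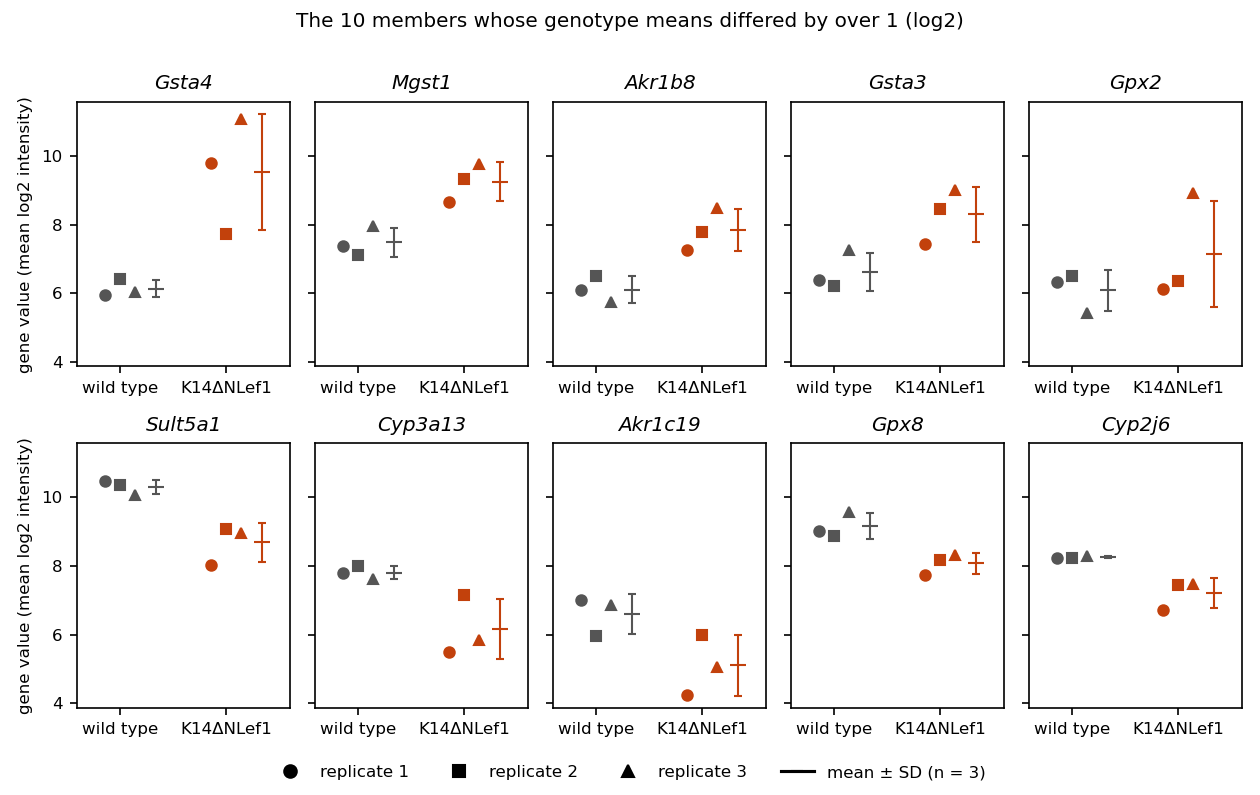
Gene values (mean log2 intensity, vertical axis) of the 10 members whose genotype means differed by over 1, for wild type (grey) and K14ΔNLef1 (orange) arrays, with replicates as symbols and mean ± SD (n = 3) beside them. Gsta4 spans 7.73 to 11.07 on the K14ΔNLef1 arrays and 5.94 to 6.42 in wild type, while Gpx2 has 2 K14ΔNLef1 arrays inside the wild type range and the third at 8.92.

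Among the glutathione transferases, the 2 measured alpha class genes had K14ΔNLef1 values above wild type without overlap, and no transferase passed the test. Gsta4, whose enzyme conjugates hydroxynonenal and other products of lipid peroxidation, had values of 5.94, 6.42 and 6.05 in wild type and 9.79, 7.73 and 11.07 in K14ΔNLef1. All K14ΔNLef1 arrays were above all wild type arrays, and they spread over more than 3 units among themselves. The difference of 3.39 (SE 0.71, 95% interval 1.77 to 5.01), or 10.5-fold, did not pass (adjusted p of 0.0736). Without K14ΔNLef1 replicate 2, the lowest of the 3, it was 4.29 and passed (adjusted p of 0.00494), and without replicate 3 it was 2.62 (0.102). With 1 array left out in turn the adjusted p ranged up to 0.268, and with array weights the difference was 1.999 (0.0614). The sample descriptions hold adjacent numbers that join each wild type sample to a K14ΔNLef1 sample, with no meaning given. Gsta4 passed with these pairs as a block (adjusted p of 0.0374) and with the array number as covariate (0.0156). It also passed with array medians made equal (3.50, adjusted p of 0.0237) and after quantile normalization (3.515, 0.0281). These were the only 4 of 13 settings, beside those with 1 array left out, in which Gsta4 passed. All 7 Gsta4 probe sets were higher in K14ΔNLef1, by 1.23 to 5.45, and 6 of the 7 had no overlap.

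Gsta3, a second alpha class transferase, had values of 6.40, 6.21 and 7.26 in wild type and 7.43, 8.46 and 8.99 in K14ΔNLef1. The groups did not overlap, though the lowest K14ΔNLef1 array lay close to the highest wild type array. The difference was 1.67 (SE 0.42, adjusted p of 0.144). It passed without K14ΔNLef1 replicate 1, at 2.10 (adjusted p of 0.0347), in a range of 0.0347 to 0.430 over the 6 fits with an array left out. Gsta3 also passed in 4 of 13 other settings. Among them were array medians made equal (1.78, adjusted p of 0.0278), quantile normalization (1.78, 0.0298) and array weights (1.85, 0.00354). All 7 of its probe sets were higher, by 0.81 to 2.36.

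The other 15 cytosolic, mitochondrial and zeta class transferases had differences between -0.31 (Gstm5) and 0.37 (Gstm1). The 7 mu class genes, neighbours in an unbroken run among protein-coding genes, had 4 differences above 0 and 3 below, with a median of 0.21. Gstp1, the pi class transferase read here by 1 probe set, had 11.26 ± 0.16 in wild type, with 11.22 ± 0.32 for the transgenic arrays (SD, n = 3). Gstk1, of the kappa class of mitochondria and peroxisomes, was the 1 of these 15 without overlap. It had 8.38 ± 0.12 against 8.12 ± 0.15 (SD, 3 arrays each, adjusted p of 0.629). Probe sets of alpha and mu class genes can read closely similar copies, so single values of these genes are uncertain.

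The 2 membrane-bound transferases differed in opposite directions, each without overlap. Mgst1, a microsomal transferase that also reduces lipid peroxides, had values of 7.37, 7.11 and 7.96 in wild type and 8.64, 9.32 and 9.77 in K14ΔNLef1. The difference was 1.76 (SE 0.33, 95% interval 1.01 to 2.52), or 3.39-fold, with an adjusted p of 0.0517. Without K14ΔNLef1 replicate 1 it was 2.06 and passed (adjusted p of 0.0207), and without any of the other 5 arrays it did not, with adjusted p of up to 0.205. Mgst1 also passed with array medians made equal (1.87, adjusted p of 0.00668) and after quantile normalization (1.90, adjusted p of 0.00622). Of 13 settings beside those with 1 array left out it passed in 8, with adjusted p of up to 0.346 in the rest. All 5 Mgst1 probe sets were higher, by 1.24 to 2.19. Mgst3, a microsomal transferase and peroxidase, had 9.84, 9.97 and 9.76 in wild type and 8.98, 9.35 and 9.53 in K14ΔNLef1. Its difference of -0.57 (SE 0.20) did not pass (adjusted p of 0.304), and the genotypes were separate in all 4 of its probe sets.

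Among the aldo-keto reductases, which reduce aldehydes, sugars and steroids, Akr1b8 and Akr1c19 lay apart from the rest. Akr1b8, of the aldose reductase group, had values of 6.09, 6.51 and 5.74 in wild type and 7.27, 7.78 and 8.49 in K14ΔNLef1, with no overlap. The difference was 1.73 (SE 0.33, 95% interval 0.97 to 2.50), or 3.33-fold, with an adjusted p of 0.0578. It passed without K14ΔNLef1 replicate 1 (2.02, adjusted p of 0.0241) and in no other fit with an array left out, where the adjusted p ran from 0.0983 to 0.237. It also passed with array medians made equal (1.84, adjusted p of 0.0097) and with the pairs of adjacent sample numbers as a block (0.023). Of 13 settings beside those with 1 array left out it passed in 9, with adjusted p of up to 0.355 in the rest. All 8 probe sets of Akr1b8 were higher and 6 had no overlap. Akr1b10, its neighbour among protein-coding genes, had a difference of -0.03 (adjusted p of 0.976). Akr1b genes are close copies, and which of them the 2 Akr1b10 probe sets can read was not analysed here.

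Akr1c19, of the hydroxysteroid dehydrogenase group, had 7.02, 5.95 and 6.86 in wild type and 4.25, 5.998 and 5.06 in K14ΔNLef1. Wild type replicate 2 lay just below K14ΔNLef1 replicate 2, so the groups overlapped. The difference of -1.51 (SE 0.45) did not pass (adjusted p of 0.222), and Akr1c19 was in the lowest 25% of genes by mean value. The other 5 Akr1c genes had differences between -0.36 and 0.07, and all but Akr1c12 were in that lowest 25% too. Akr1a1, the general aldehyde reductase, had 10.17 ± 0.15 and 10.32 ± 0.20 (SD, n = 3).

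The promoters of Mgst1, Gsta3 and Akr1b8 are shown because, after Gsta4, these 3 genes had the largest differences above wild type without overlap, and that of Sult5a1 because it is the member that passed. Gsta4 had no entry in the table. The sequences are the 250 bases before the RefSeq gene start, from GRCm38.p6, written 5′ to 3′ on the gene's strand. Capitals mark matches to the antioxidant response element core TGACNNNGC, bound by NRF2, or to the xenobiotic response element core GCGTG, bound by AHR, on either strand. Mgst1 is read from chr6:138140277-138140526 (plus strand), the upstream one of its 2 listed starts. Gsta3 is from chr1:21240335-21240584 (plus strand), Akr1b8 from chr6:34353896-34354145 (plus strand) and Sult5a1 from chr8:123158281-123158530 (minus strand).
Mgst1: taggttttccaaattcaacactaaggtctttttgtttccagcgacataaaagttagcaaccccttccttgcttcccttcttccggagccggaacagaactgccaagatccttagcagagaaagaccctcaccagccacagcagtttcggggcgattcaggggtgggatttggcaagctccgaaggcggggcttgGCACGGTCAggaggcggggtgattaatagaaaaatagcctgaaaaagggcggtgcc
Gsta3: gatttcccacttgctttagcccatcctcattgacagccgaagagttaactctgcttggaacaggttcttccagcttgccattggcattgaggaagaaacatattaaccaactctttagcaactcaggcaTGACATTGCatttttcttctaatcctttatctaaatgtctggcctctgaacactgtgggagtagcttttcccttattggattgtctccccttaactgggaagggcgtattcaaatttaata
Akr1b8: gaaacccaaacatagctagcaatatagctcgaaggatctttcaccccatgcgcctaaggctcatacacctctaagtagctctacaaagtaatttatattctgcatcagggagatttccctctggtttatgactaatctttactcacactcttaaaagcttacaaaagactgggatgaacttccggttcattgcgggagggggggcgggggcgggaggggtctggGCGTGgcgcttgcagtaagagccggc
Sult5a1: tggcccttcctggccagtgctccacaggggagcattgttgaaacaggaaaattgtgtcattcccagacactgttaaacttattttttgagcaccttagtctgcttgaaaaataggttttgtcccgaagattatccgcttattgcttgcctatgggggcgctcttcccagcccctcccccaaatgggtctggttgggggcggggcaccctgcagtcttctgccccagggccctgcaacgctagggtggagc

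The antioxidant core began 56 bases before the start in Mgst1 and 121 bases before it in Gsta3, and the xenobiotic core 26 bases before it in Akr1b8. The other listed start of Mgst1, which is not printed, held none of the 3 cores. Sult5a1 held neither core, and none of these windows held the LEF and TCF core CTTTGA. No marked matches overlapped each other. Over windows of 300 bases, from 250 before to 50 after the start, 11 of the 86 members with an entry (12.8%) held the antioxidant core, beside 16.2% of 9032 measured genes and 14% of all 27025 genes in the table. The xenobiotic core was in 23 members (26.7%), beside 49.3% of measured and 35.2% of all genes. The LEF and TCF core was in 17 members (19.8%), beside 15.8% and 18.2%. A match describes letters in a window and is no sign of binding.

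The glutathione peroxidases had no member that passed, and 2 of 7 had values below wild type without overlap. Gpx8, a peroxidase of the endoplasmic reticulum membrane, had 9.02, 8.85 and 9.57 in wild type and 7.72, 8.16 and 8.31 in K14ΔNLef1. The difference was -1.08 (SE 0.25, adjusted p of 0.112), and all 6 probe sets were lower. Gpx1, the cytosolic selenium enzyme, had 11.69, 11.88 and 11.78 in wild type and 11.05, 11.21 and 11.57 in K14ΔNLef1. Its difference of -0.51 (SE 0.19) did not pass either (adjusted p of 0.357), again with all 6 probe sets lower. Gpx2, read by 1 probe set, had 6.34, 6.52 and 5.42 in wild type and 6.13, 6.37 and 8.92 in K14ΔNLef1, so its difference of 1.05 (adjusted p of 0.622) came from replicate 3. The plasma peroxidase gene Gpx3 and the lipid hydroperoxide peroxidase gene Gpx4 differed by 0.09 and -0.12, both from dim probe sets in the lowest 25% of genes.

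The genes of glutathione synthesis and recycling had overlapping genotypes throughout. Gclc, the catalytic subunit of the ligase, had 7.35, 7.33 and 7.76 in wild type and 6.57, 7.40 and 7.68 in K14ΔNLef1, with K14ΔNLef1 replicate 1 the lowest array. Its difference was -0.26 (95% interval -0.95 to 0.42). Gclm, the modifier subunit, differed by 0.03 (-0.48 to 0.53), and Gss, the synthetase, by 0.01 (-0.63 to 0.64). Gsr, the reductase, had 8.09, 8.15 and 8.12 in wild type and 7.55, 7.92 and 8.39 in K14ΔNLef1, a difference of -0.17 (-0.70 to 0.37). Txnrd1, which keeps thioredoxin reduced, differed by 0.25 (-0.31 to 0.80). The intervals reach 0.80 upward and 0.95 downward, so changes below 2-fold could be present in any of the 5.

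Nqo1, a quinone reductase, and Hmox1, which degrades heme, are widely used readouts of NRF2 activity. Nqo1 had 6.03, 6.04 and 5.99 in wild type and 5.85, 6.06 and 6.26 in K14ΔNLef1, a difference of 0.04 (95% interval -0.37 to 0.45). Hmox1 had 6.45, 6.001 and 6.50 against 6.67, 6.31 and 6.35, a difference of 0.12 (-0.35 to 0.60). Both genes overlapped between the genotypes and both were in the lowest 25% of genes by mean value. The sign of the difference changed under some alternatives for Gclc, Gclm, Gss, Gsr, Nqo1 and Hmox1.

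Of the regulators, Ahr had values below wild type without overlap, and Nfe2l2 and Keap1 overlapped. Ahr had 9.19, 8.88 and 9.27 in wild type and 7.89, 8.79 and 8.37 in K14ΔNLef1, with K14ΔNLef1 replicate 2 close to wild type replicate 2. The difference of -0.76 (SE 0.25) did not pass (adjusted p of 0.281), and 13 of its 14 probe sets were lower. Nfe2l2 had 9.53, 9.50 and 9.55 in wild type and 8.998, 9.24 and 9.71 in K14ΔNLef1, a narrow group beside a wide one, with a difference of -0.21 (95% interval -0.70 to 0.28). Keap1 differed by -0.24 (-0.65 to 0.17). The Cyp1 genes that Ahr induces had no difference that passed, with -0.22 for Cyp1a1, 0.08 for Cyp1a2 and -0.34 for Cyp1b1 (adjusted p of 0.721, 0.909 and 0.723). Cyp1a1 and Cyp1a2 were in the lowest 25% of genes by mean value, so their small differences do not show unchanged AHR activity.

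**Figure D3:**
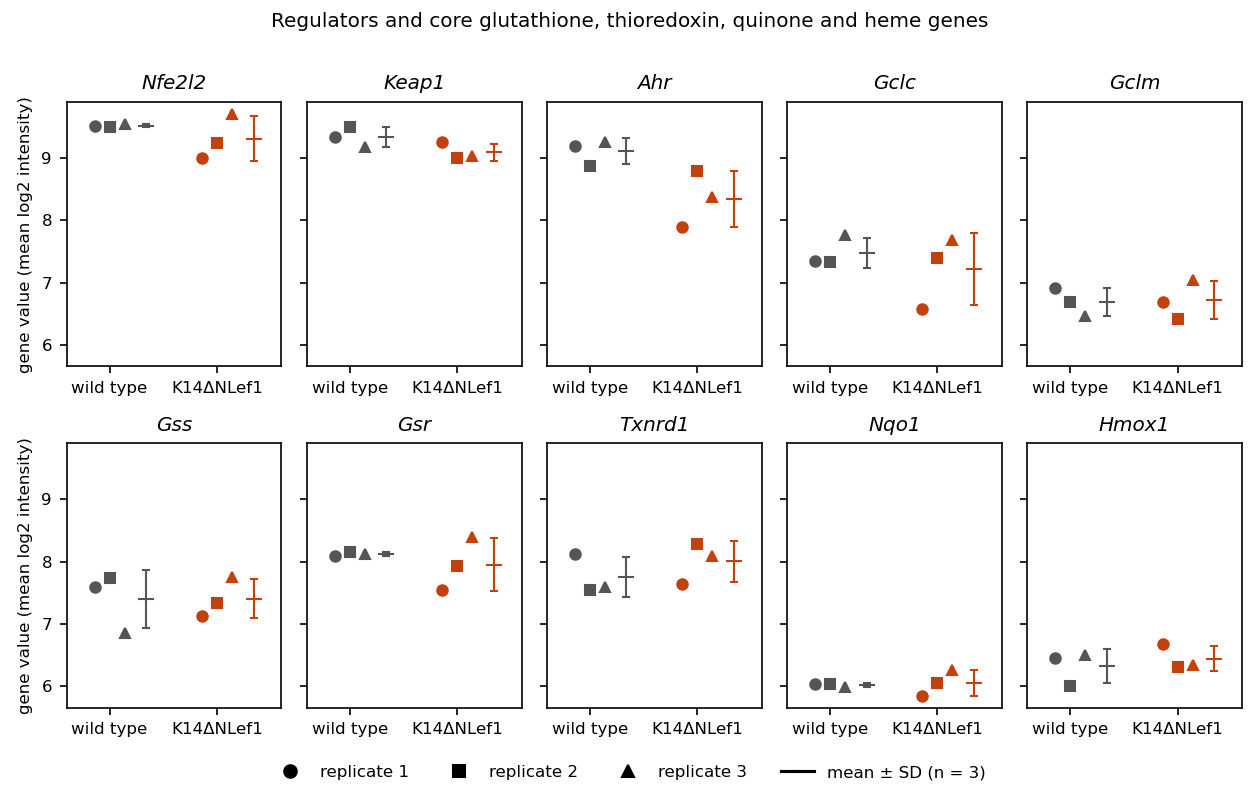
Gene values (mean log2 intensity, vertical axis) of the 3 regulators and 7 core genes on each wild type (grey) and K14ΔNLef1 (orange) array, with replicates as symbols and mean ± SD (n = 3). Of the 10, only Ahr shows no overlap between the genotypes, and K14ΔNLef1 replicate 1 is the lowest array for Nfe2l2, Ahr, Gclc, Gsr and Nqo1.

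Of 40 cytochromes P450, none passed, 20 were higher and 20 lower, and the median difference was -0.01. Cyp3a13, of the drug-metabolising CYP3A group, had 7.80, 8.003 and 7.60 in wild type and 5.51, 7.14 and 5.84 in K14ΔNLef1. All K14ΔNLef1 arrays were lower, replicate 2 least so. The difference of -1.64 (SE 0.39) had an adjusted p of 0.125, and without K14ΔNLef1 replicate 2 it was -2.13 and passed (adjusted p of 0.0132, with up to 0.379 when another array was left out). Cyp3a13 passed in 0 of 13 settings beside those with 1 array left out (adjusted p of 0.0587 to 0.448). Of its 13 probe sets 12 were lower. The other 2 measured CYP3A genes, Cyp3a11 and Cyp3a16, differed by 0.32 and 0.17.

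Cyp2j6 and Cyp2j9, neighbours of the CYP2J group that oxidises fatty acids, both lay below wild type without overlap. Cyp2j6 had 8.24, 8.22 and 8.28 in wild type and 6.72, 7.44 and 7.46 in K14ΔNLef1, a difference of -1.04 (SE 0.23, adjusted p of 0.0967). It passed without K14ΔNLef1 replicate 1, at -0.79 (adjusted p of 0.0371), in a range of up to 0.359 with an array left out. Cyp2j9 had 8.58, 8.09 and 8.48 against 7.37, 7.81 and 7.32, a difference of -0.88 (SE 0.22, adjusted p of 0.137). Their neighbour Cyp2j5, in the lowest 25% of genes, differed by -0.12. These are close copies, so the values of Cyp2j6 and Cyp2j9 are not independent with certainty. Cyp2b19, a P450 of differentiating keratinocytes that forms epoxides of arachidonic acid, had 6.98, 7.28 and 6.82 in wild type and 6.15, 6.41 and 6.27 in K14ΔNLef1. Its difference of -0.75 (SE 0.19) did not pass (adjusted p of 0.147). The other 3 CYP2B genes, Cyp2b9, Cyp2b10 and Cyp2b13, differed by -0.02, 0.04 and 0.05, and Cyp2b13 was in the lowest 25% of genes.

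The 2 epoxide hydrolases were lower by like amounts, and neither passed. Ephx1, the microsomal enzyme, had 9.63, 9.77 and 10.06 in wild type and 8.41, 9.22 and 9.46 in K14ΔNLef1, with no overlap and all 11 probe sets lower. Its difference was -0.79 (SE 0.29, adjusted p of 0.327). Without K14ΔNLef1 replicate 1, the lowest array, it was -0.48. Ephx2, the soluble enzyme that hydrolyses fatty acid epoxides, had 6.81, 5.91 and 6.95 against 5.74, 6.19 and 5.39, with wild type replicate 2 inside the K14ΔNLef1 range. Its difference was -0.78 (SE 0.32, adjusted p of 0.389).

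**Figure D4:**
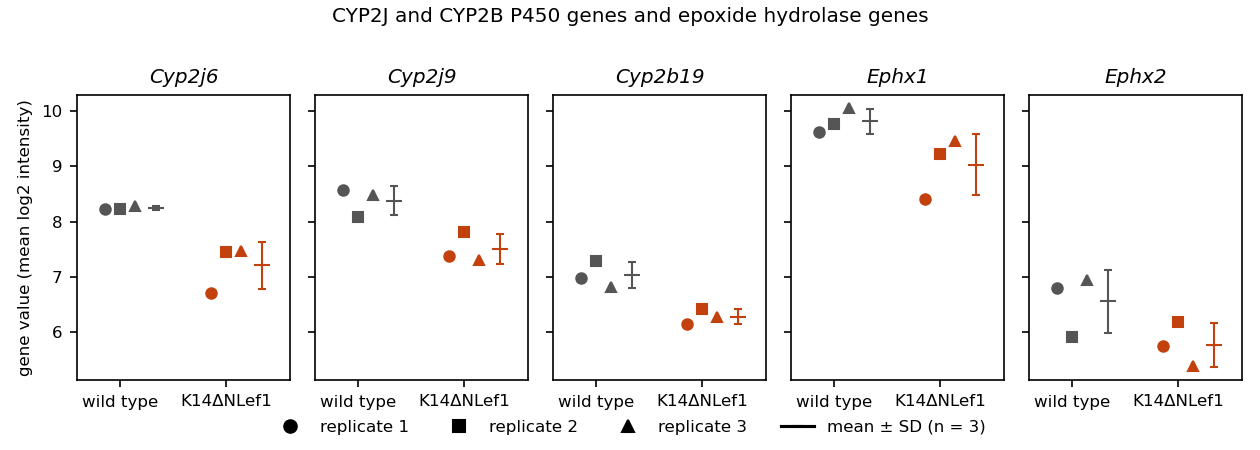
Gene values (mean log2 intensity, vertical axis) of 3 P450 genes of the CYP2J and CYP2B groups and both epoxide hydrolase genes, for wild type (grey) and K14ΔNLef1 (orange) arrays, with mean ± SD (n = 3). The genotypes are separate for Cyp2j6, Cyp2j9, Cyp2b19 and Ephx1 and overlap for Ephx2.

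Only 2 P450 genes had all K14ΔNLef1 values above wild type. Cyp2c37 had 6.92, 6.96 and 6.21 in wild type and 7.67, 6.96 and 7.21 in K14ΔNLef1, with wild type replicate 2 and K14ΔNLef1 replicate 2 almost equal (difference 0.59, adjusted p of 0.469). Cyp2c55 had 3.52 ± 0.04 and 3.85 ± 0.05 (SD, n = 3), a difference of 0.33 from dim probe sets (adjusted p of 0.482). Of the 40 P450 genes 21 were in the lowest 25% of genes by mean value. The 10 Cyp4 genes had differences between -0.44 (Cyp4f13) and 0.32 (Cyp4f14), with none free of overlap.

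The sulfotransferases held the member that passed. Sult5a1 had values of 10.47, 10.34 and 10.05 in wild type and 8.03, 9.05 and 8.96 in K14ΔNLef1. The highest K14ΔNLef1 array lay well below the lowest wild type array. The difference was -1.604 (SE 0.29, 95% interval -2.27 to -0.94), a level 3.04-fold lower, with a limma adjusted p of 0.0475. All 7 probe sets were lower, by 0.60 to 2.03, and 6 of them did not overlap. The call was lost without wild type replicate 1, 2 or 3 (adjusted p of 0.202, 0.193 and 0.148) and without K14ΔNLef1 replicate 2 or 3 (0.0682 and 0.0771). It was also lost with the median of probe sets (0.0867), with the brighter probe sets only (0.0658), with the array number as covariate (0.0999) and without moderation of variances (0.319). It held without K14ΔNLef1 replicate 1, at -1.28 (adjusted p of 0.0197), and with array medians made equal, at -1.50 (0.0114). Sult1c2 was above wild type without overlap, at 3.50 ± 0.02 and 4.11 ± 0.14 (SD, n = 3), from 2 dim probe sets (difference 0.61, adjusted p of 0.178). Sult2b1, which makes cholesterol sulfate in the upper epidermis, had 7.10 ± 0.17 and 6.87 ± 0.58 (SD, n = 3, adjusted p of 0.807). The remaining 7 sulfotransferases had differences between -0.13 and 0.36 and overlapped.

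The 4 glucuronosyltransferases read by probe sets with 1 symbol were all slightly higher, by 0.01 to 0.69, all with overlap. All but Ugt1a5 were in the lowest 25% of genes by mean value, so the like signs do not show a rise of the family. The largest difference was that of Ugt1a5 (adjusted p of 0.680), from 1 probe set, and Ugt2a3 differed by 0.19 (adjusted p of 0.788).

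Single probe sets of the members with large differences mostly ran in the same direction. Their positions in the gene were not analysed. These members were picked by the mean of the same probe sets, which favours like signs. The signs were alike for all probe sets of Gsta4, Mgst1, Akr1b8, Gsta3, Sult5a1, Gpx8 and Gpx1. Cyp3a13 had 1 probe set of 13 and Cyp2j6 had 1 of 10 in the other direction, at 0.05 and 0.16. The smallest adjusted p among member probe sets of these genes were 0.0637 for Mgst1, 0.0915 for Akr1b8, and 0.0991 for Sult5a1 and Cyp2j6.

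**Figure D5:**
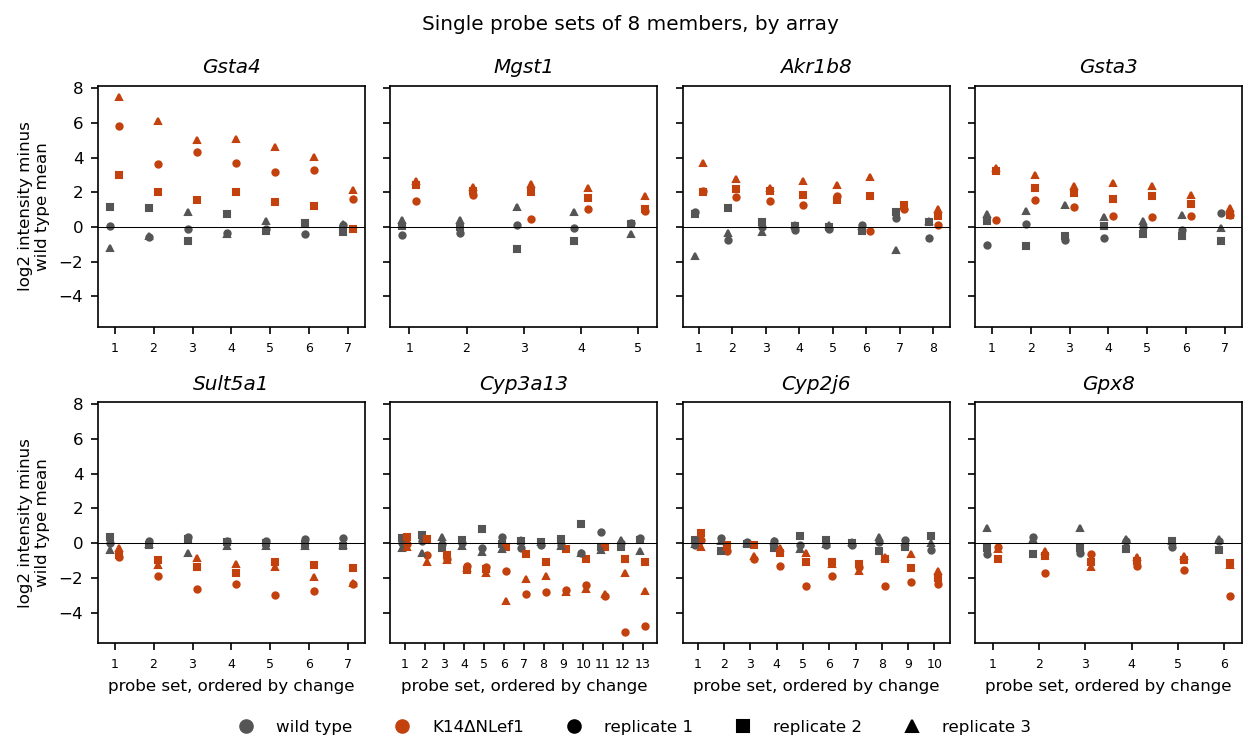
Log2 intensity of single probe sets minus their wild type mean (vertical axis) for 8 members, probe sets ordered by their change, on wild type (grey) and K14ΔNLef1 (orange) arrays. The 7 probe sets of Gsta4 share 1 order of the K14ΔNLef1 arrays, with replicate 3 highest and replicate 2 lowest, and K14ΔNLef1 replicate 1 is lowest for all 7 probe sets of Sult5a1.

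Other genes of these pathways, listed from general knowledge, held 2 that passed, both lower. Of 37 measured NRF2 and antioxidant genes outside the rule, Cbr2, a carbonyl reductase, fell by 1.31, with 10.66, 10.65 and 10.67 in wild type and 8.98, 9.57 and 9.50 in K14ΔNLef1 (SE 0.20, limma adjusted p of 0.0257). Of these 37 genes 14 were higher and 23 lower, with a median of -0.06 beside -0.054 over all genes. Of 24 other phase I and II enzymes and exporters, Abcc5, an exporter of organic anions and nucleotides, fell by 1.16, with 9.13, 9.10 and 8.86 against 7.56, 8.18 and 7.86 (SE 0.21, adjusted p of 0.0459). In this list 10 were higher and 14 lower, with a median of -0.11. Both calls were lost without any of the wild type arrays or without K14ΔNLef1 replicate 2 or 3, with adjusted p of 0.0558 to 0.143 for Cbr2 and 0.0586 to 0.206 for Abcc5. Without K14ΔNLef1 replicate 1 both held, at -1.12 (0.0137) and -1.01 (0.0386). None of 9 AHR pathway genes passed, with a median of -0.08. The nearest were Tiparp, an AHR target, at -1.05 (adjusted p of 0.204), and Ahrr, the AHR repressor, at 0.43 (adjusted p of 0.379).

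The arrays differed within the K14ΔNLef1 group in ways that bear on these values. The mean deviation of the members from wild type was -0.08, -0.02 and 0.10 on K14ΔNLef1 replicates 1, 2 and 3, and that of all genes -0.25, -0.04 and 0.05. K14ΔNLef1 replicate 1 was the lowest array for 27.2% of the members. Mgst1, Gsta3 and Akr1b8 took the order replicate 1, 2, 3 from low to high, as did 28 members (27.2%) and 35.7% of all genes. Gsta4 took the order 2, 1, 3, as did 14 members (13.6%) and 9.79% of all genes. Sebocyte markers, of the lipid-secreting gland cells attached to hair follicles, had mean deviations of 0.08, 0.30 and 0.51 on the same arrays. Of 13 measured markers 9 were higher, 5 of them without overlap, and 4 were lower. The lower ones held Elovl4 at -0.88 and Dgat2 at -0.48, the 2 without overlap (adjusted p of 0.299 and 0.314), and Scd1 at -0.01. The summed intensity of the 13 markers was 2104 to 2363 in wild type and 1863 to 2984 in K14ΔNLef1. No marker is listed at 0, and 6 of the 13 lay in the lowest 25% of genes, Pparg, Cidea, Hsd11b1, Elovl3, Scd3 and Mogat1. Hair follicle markers had mean deviations of -0.002, 0.195 and 0.289, in the same order, with 6 of 10 higher, and summed intensities of 7892 to 8318 in wild type and 6682 to 7489 in K14ΔNLef1. Macrophage, monocyte and neutrophil markers had mean deviations of 0.286, 0.134 and 0.682, in the order of Gsta4, with 8 of 10 higher. Their median deviations were 0.233, 0.176 and 0.018, lowest on replicate 3, so the list as a whole did not follow that order. Their summed intensities were 633 to 663 in wild type and 726 to 1450 in K14ΔNLef1, and 8 of the 10 lay in the lowest 25% of genes. The lower ones of these markers were Cd14 at -0.54, without overlap, and Csf3r at -0.06 (adjusted p of 0.458 and 0.928). Cd14, Cd68, Lyz2, Mrc1, Itgam and Cd163 had their lowest K14ΔNLef1 value on replicate 3, while Csf3r had its highest there. S100a8, a neutrophil and stressed keratinocyte gene, had 5.44, 5.06 and 9.14 on the 3 K14ΔNLef1 arrays (difference 1.97, adjusted p of 0.473). S100a9 had 6.29, 5.03 and 8.44 on them (difference 1.36, adjusted p of 0.568). Fibroblast markers, with 9 of 10 higher, had mean deviations of 0.212, 0.164 and 0.309 on the K14ΔNLef1 arrays. Those of adipocyte markers, with 3 of 7 higher, were 0.121, -0.034 and 0.407. Both lists took the order of Gsta4 by mean. Neither took it by median deviation, at 0.34, 0.212 and 0.037 for fibroblast and 0.246, -0.142 and -0.048 for adipocyte markers. The part of these cells in the values of Mgst1, Gsta3, Akr1b8 and Gsta4 was not tested. In these samples a change in the number of cells of a type and a change of RNA per cell cannot be told apart.

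T cell markers were higher in 8 of 8 and Langerhans cell markers in 8 of 9 genes, none passing the test, with summed intensities of 2174 to 3684 and 1880 to 2738 in wild type and 2390 to 7966 and 2002 to 6053 in K14ΔNLef1. The highest array for both was K14ΔNLef1 replicate 2, the array with the lowest Gsta4 and the highest Cyp3a13 of the 3. Keratinocyte markers were lower in 9 of 10 genes, with summed intensities of 34150 to 36558 in wild type and 24260 to 33964 in K14ΔNLef1, lowest on replicate 1. Sult5a1, Gpx8, Cyp2j6, Ephx1 and Ahr were also lowest on that array, as were 27.2% of the members and 42.3% of all genes. Cyp2j9 and Ephx2, also lower in K14ΔNLef1, were lowest on K14ΔNLef1 replicate 3. The part of these cell types in the members' values was not tested.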

How the data were processed

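RNA of 6 samples was extracted after a cell sort, amplified, labelled with biotin and hybridised to exon arrays, per the labels' protocols. The deposited table holds 1 linear intensity per probe set and array, made by the authors with RMA, Affymetrix Power Tools and mm9, per the submitters' processing notes; no source used here gives versions or filters. These intensities were converted to log2. Of 114330 probe sets, 109751 had 1 symbol in the platform annotation, 834 several and 3745 none listed; only the former were averaged per gene. Symbols were updated through the GRCm38.p6 gene table for 1226 genes, 3 of them members. The members have 1 to 16 probe sets, with a median of 5, and 12 have 1. Gene values were compared by limma 3.58.1 (lmFit and eBayes, two-sided; R 4.3.3), with Benjamini-Hochberg adjustment over all 11281 genes, threshold 0.05, no filter on low values, and probe sets likewise. The code was tested on simulated data. The number of arrays limits the precision. Python 3.11.15, pandas 2.3.3 and matplotlib 3.10.9 read and drew the data. Promoter sequences are from RefSeq (GRCm38.p6), with 86 of 103 members matched by symbol.

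The members, roles and gene lists were chosen with earlier results of these data known. Named genes are Lef1, every member that passed, the 10 largest differences each way without overlap, the 2 smallest p in each role, 10 core genes whatever their values, and in the other lists those that passed or else the 2 smallest p. Gpx2, Gpx3, Gpx4, Gstk1, Gstm1, Gstm5, Gstp1, Akr1a1, Akr1b10, Sult2b1 and further Cyp1, Cyp2, Cyp3 and Cyp4 genes were named after their values were seen. Alternatives were other summaries of probe sets, filters, scalings, variance models, array weights, blocks, a covariate and each array left out.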

Additional observations from a re-analysis of the deposited data

How the results depend on the processing

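Of the 30 members and 5 other genes named by rule, 28 kept their direction under every alternative in which they were tested. The counts of members that passed depended on the settings, from 0 higher and 1 lower as given. There were 2 higher and 1 lower with the brighter probe sets only (the lower 1 being Cyp2b19), without the lowest 25% of genes, with genes of at least 4 probe sets and with a block of adjacent sample numbers. There were 4 higher and 2 lower with array medians made equal and with quantile normalization, 1 higher and 1 lower with trend and robust eBayes, 4 higher and 9 lower with array weights, and 1 higher and 0 lower with the array number as covariate. The median of probe sets and the fit without moderation left 0 higher and 0 lower. An adjusted p at or under 0.1 gave 3 higher and 2 lower, as did K14ΔNLef1 replicate 1 left out with quantile normalization, where 21 members (20.4%) lay below without overlap, beside 18.4% of all genes. With 1 array left out there were 0 to 3 higher and 0 to 2 lower, and 9 to 15 members above (8.74% to 14.6%) and 13 to 18 below (12.6% to 17.5%) without overlap, beside 9.93% to 14.4% and 14.8% to 24% of all genes. The shares of members and of all genes called were 2.91% and 1.42% with the brighter probe sets, 5.45% and 1.38% without the lowest 25%, 4.69% and 1.85% with at least 4 probe sets, 2.91% and 0.807% with the adjacent numbers, 5.83% and 2.09% with equal medians, 5.83% and 1.78% with quantile normalization, 1.94% and 1.31% with trend and robust eBayes, 12.6% and 11.5% with array weights, 0.971% and 0.691% with the array number, and 4.85% and 2.09% at 0.1. With 1 array left out the shares of members and of all genes called were 0% to 4.85% and 0.248% to 2.12%. The highest of both came without K14ΔNLef1 replicate 1. With that array left out and quantile normalization they were 4.85% and 2.11%, and with the median of probe sets 0% and 0.975%. Over all genes the calls ran from 0 without moderation to 1297 with array weights. The cause was not tested.

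The replicate numbers pair no samples in the labels, and the deviations of same-numbered samples correlated at -0.163, -0.173 and 0.036 over genes. Those of adjacent sample numbers, which may mark litters though no label says so, correlated at 0.199, -0.075 and -0.007. With the replicate block 1 member was higher, Mgst1 (adjusted p of 0.0406), and 0 were lower (Sult5a1 0.102), with 75 in place of 131 calls over all genes.

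The median difference of the members was -0.09 without the lowest 25% of genes, 0.109 with the same medians, 0.079 after quantile normalization and -0.076 with array weights, where that of all genes was -0.115, 0.055, 0.056 and -0.054. Signs changed for 7 genes that never passed. Gclc was 0.053, Gclm 0.000, Gsr 0.040, Hmox1 -0.033 and Ugt2a3 -0.093 without K14ΔNLef1 replicate 1 after quantile normalization. With array weights Gclm was -0.198, Gss -0.006 and Hmox1 -0.009. With the median of probe sets Gsr was 0.022, Hmox1 -0.107 and Nqo1 -0.025, and with the brighter probe sets Gss and Nqo1 were -0.078. With 1 array left out Gclc ran from -0.492 to 0.063, Gclm from -0.134 to 0.173, Gsr from -0.386 to 0.036, Gss from -0.262 to 0.179, Hmox1 from -0.034 to 0.214, Nqo1 from -0.068 to 0.141 and Ugt2a3 from -0.015 to 0.298.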

Other observations

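Probe sets annotated to several symbols entered no gene value. Of 18 such probe sets that hold a symbol of these families, 7 read several Ugt1a genes, whose transcripts share their last exons. Probe set 5180822 of this group had 6.95 in wild type and 7.94 in K14ΔNLef1 without overlap (difference 0.99, limma adjusted p of 0.420), and probe set 5357313 had 6.94 and 8.47 with overlap (difference 1.53, adjusted p of 0.562). The probe set shared by Akr1c12 and Akr1c13 differed by -0.36 (adjusted p of 0.920). None of the 18 passed over all 114330 probe sets.

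Among genes of the other lists that did not pass but had no overlap, Adh1, an alcohol dehydrogenase that oxidises retinol, had 8.97, 8.55 and 8.70 in wild type and 9.55, 9.61 and 9.81 in K14ΔNLef1 (difference 0.92, adjusted p of 0.0699). Cyb5a, the cytochrome that passes electrons to P450 enzymes, had 9.95, 9.88 and 9.99 against 8.65, 9.30 and 8.998 (difference -0.96, adjusted p of 0.0829), and its reductase Cyb5r3 had 10.01, 10.26 and 10.22 against 8.88, 9.29 and 9.71 (difference -0.87, adjusted p of 0.177). Ggct, a cyclotransferase of the gamma-glutamyl cycle, had 10.10, 10.11 and 9.95 against 7.84, 9.12 and 9.50 (difference -1.24, adjusted p of 0.238). These 4 were named after their values were seen.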
